A study of Rattus norvegicus with 14 samples.

Results

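The 7 genes described here were the class IIa histone deacetylases Hdac4, Hdac5, Hdac7 and Hdac9 and the MEF2 transcription factors Mef2a, Mef2c and Mef2d, read in hippocampal neurons and hippocampal astrocytes. They were taken by symbol, and all 7 were found among the 18239 genes listed for neurons and the 31791 listed for astrocytes. All 7 also passed the minimum mean of 10 normalized counts in both cell types, so each was among the 15314 neuron genes and 15380 astrocyte genes tested. Hdac9 was chosen because it was lower in neurons treated with allopregnanolone (Allo), so its values in that comparison are given as a description with no test.

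The cells were primary cultures from the hippocampi of Sprague Dawley rat fetuses at embryonic day 18, and all were kept in the medium that the study calls AM. For neurons, AM was a medium with its B27 supplement reduced from 2% to 0.2%, given on day 10 of culture for 4 h before treatment and kept through the 16 h of treatment. For astrocytes, AM held 10% charcoal-stripped serum, with 24 h before treatment and 24 h of treatment. AM-Veh cells then received vehicle (0.001% ethanol) and AM-Allo cells received 100 nM Allo, a neurosteroid that acts on the GABA-A receptor. Neurons had 4 AM-Veh and 4 AM-Allo libraries, numbered 1-1, 1-2, 2-1 and 2-2 in each group, and astrocytes had 3 and 3. No label says that the libraries came from separate cultures or animals, so p-values measure the spread between these libraries, which may be technical.

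Class IIa histone deacetylases have little deacetylase activity of their own and act mainly by binding MEF2 factors on DNA and bringing a corepressor complex that holds HDAC3. When Ca2+ rises, CaM kinases and protein kinase D phosphorylate them, 14-3-3 proteins bind the phosphorylated forms, and the complex leaves the nucleus, which frees MEF2 to activate transcription. In neurons MEF2 factors are known for activity-dependent genes such as Nr4a1, Arc and Bdnf and for the control of excitatory synapse number. RNA-seq reads the transcripts of these genes and not the phosphorylation or location of their proteins.

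The promoter sequences of the genes are shown to see how Hdac9 differs from its relatives and which of the genes carry a MEF2 site of their own. RefSeq windows on the GRCr8 assembly, from 250 bases before to 50 bases after 1 annotated start of each gene, were matched for 6 of the 7 genes, all but Mef2c. The Hdac9 window lies at chr6:57052522-57052821 on the minus strand, and its CG dinucleotides are in capitals.
Hdac9: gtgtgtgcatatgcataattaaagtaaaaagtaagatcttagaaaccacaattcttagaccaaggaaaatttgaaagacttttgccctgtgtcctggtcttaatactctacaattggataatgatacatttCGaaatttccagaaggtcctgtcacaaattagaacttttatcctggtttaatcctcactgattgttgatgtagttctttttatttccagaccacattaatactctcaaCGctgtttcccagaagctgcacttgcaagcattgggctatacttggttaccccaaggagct
The Hdac9 window had 37.0% G and C with 2 CG dinucleotides, whereas the windows of the other 5 genes had 60.7% to 72.7% with 22 to 30. Over all 33469 promoter windows the median was 51.7% G and C with 7 CG, and the 5th percentile was 35.3%. Hdac9 therefore had the most CG-poor of the 6 windows, at the start used here, and other starts of the gene were not read.

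The MEF2 consensus site was searched on both strands of the same windows. It was found in 2 of the 6 genes, Hdac5 and Mef2a, and in 3.29% of all windows. Stretches of 60 bases around these sites are shown with the site in capitals, Hdac5 at chr10:87688072-87688131 and Mef2a at chr1:130392168-130392227, both on the minus strand.
Hdac5: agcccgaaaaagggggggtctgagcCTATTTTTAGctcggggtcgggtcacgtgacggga
Mef2a: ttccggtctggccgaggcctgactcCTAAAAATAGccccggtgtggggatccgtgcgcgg
The site began 52 bases before the start of Hdac5 and 40 bases before that of Mef2a. Hdac9 had no such letters in its window, and neither Hdac5 nor Mef2a passed the test for Allo in either cell type. The CREB site TGACGTCA, on both strands, was in 0 of the 6 windows and in 1.83% of all windows.

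The labelled cell types were checked against marker genes. Neuron cultures held the neuronal markers (Map2 and Stmn2 with the most counts), with a summed normalized count of 52977 to 58117 in AM-Veh and 55096 to 63637 in AM-Allo. They also held abundant astrocyte markers, led by Gfap, at 199565 to 258956 and 198968 to 251362, and oligodendrocyte lineage markers, led by Olig1, at 38615 to 43079 and 38776 to 45659. Microglial markers, 6 of the 10 analysed there, summed to at most 57.1, endothelial markers, 5 of 8, to at most 130, and mesenchymal markers to 6303 to 9410. That mesenchymal sum came mainly from Tagln, with an AM-Veh mean of 7230, and Pdgfrb was next at 368. Of the 9 neuronal markers tested, Tubb3, Slc17a7 and Map2 rose and Gad2 fell before adjustment (limma, threshold 0.05), and of the 8 mesenchymal markers Tagln fell. These calls stand beside 5.69% of all genes in either direction, and 0 of the 9 astrocyte and 0 of the 9 oligodendrocyte lineage markers passed. Astrocyte cultures held astrocyte markers at 239668 to 253760, mesenchymal markers at 106915 to 127174, neuronal markers at 26714 to 28291, oligodendrocyte lineage markers at 3921 to 4360, all 10 microglial markers at 1491 to 1916 and 7 of 8 endothelial markers at 537 to 661, with Cldn5 at 0. The neuronal sum there came mainly from Stmn2, with AM-Veh means of 21790 for Stmn2, 3873 for Map2, 1803 for Gad1 and 215 for Syn1. Tubb3, Syt1, Gad2, Slc17a7 and Rbfox3 had AM-Veh means of at most 32.2. The endothelial sum in astrocyte cultures was almost all Kdr, with an AM-Veh mean of 543. Flt1, Esam, Cdh5, Tek and Emcn were at 13.8, 11.0, 9.43, 9.21 and 0. Of the mesenchymal markers there, Tagln, Col1a2 and Col1a1 led with AM-Veh means of 42990, 29769 and 23505, while Lum and Dcn were at 8.11 and 5.86. In astrocyte cultures Map2 of 6 neuronal markers tested, Slc1a2 and S100b of 9 astrocyte markers and Cx3cr1 of 10 microglial markers fell. These were calls at an unadjusted p under 0.05 (limma), beside 7.01% of all genes in either direction. The values below are those of whole cultures, in which fewer cells of a type and less RNA per cell cannot be told apart.

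Hdac9, a class IIa deacetylase of neurons and muscle that represses MEF2 targets, was lower in every AM-Allo neuron library than in any AM-Veh library. Its normalized counts were 615, 648, 627 and 543 in AM-Veh libraries 1-1, 1-2, 2-1 and 2-2. In AM-Allo they were 410, 418, 501 and 449 in the same order. The groups did not overlap, and the smallest gap lay between AM-Veh 2-2 and AM-Allo 2-1. The mean was 608 ± 45.5 in AM-Veh and 444 ± 41.4 in AM-Allo (SD, n = 4), so the level decreased by 26.9%, with a log2 difference of -0.45 (SE 0.078). Groups did not overlap for 3.95% of all neuron genes, with 1.89% lower in AM-Allo, which is given for scale alone since the gene was chosen on this comparison.

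**Figure D1:**
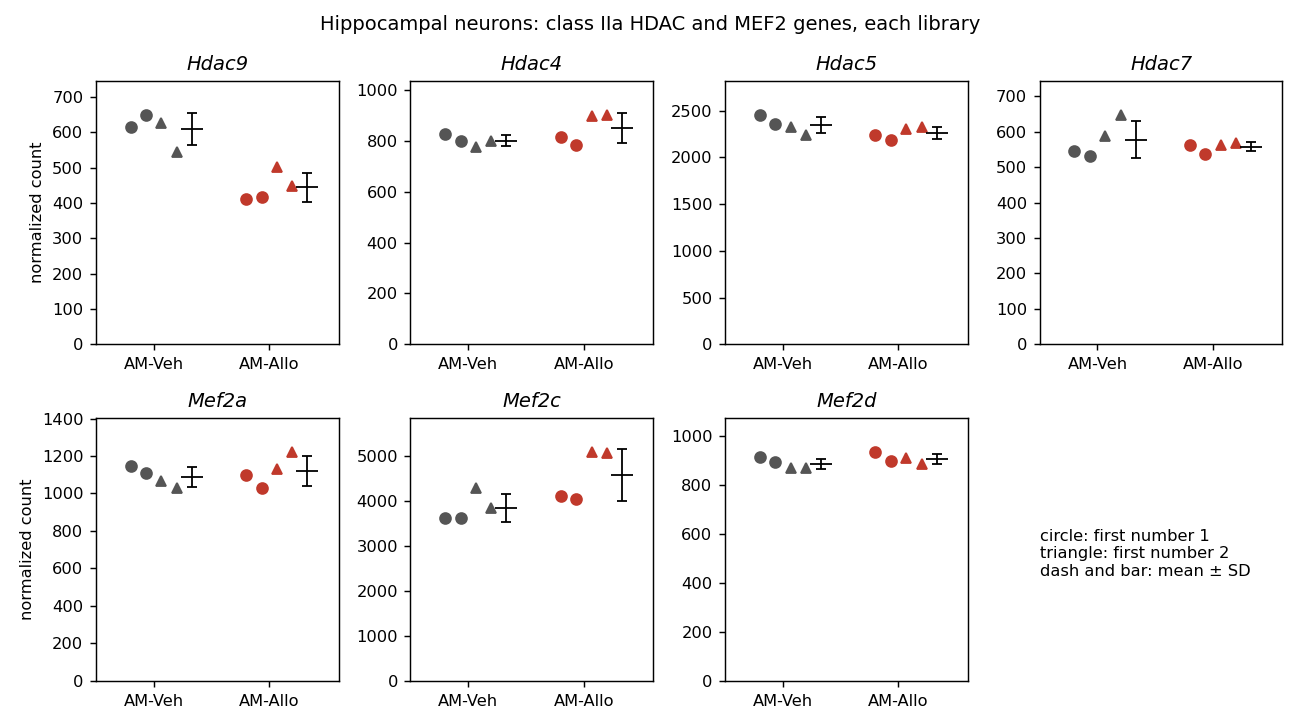
Normalized counts of the 7 genes in each neuron library (y axis, from 0, on a scale of its own for each gene), with AM-Veh in grey, AM-Allo in red, circles for libraries with first number 1 and triangles for first number 2, and the dash and bar for the mean ± SD of 4 libraries. Hdac9 lies between 543 and 648 in AM-Veh and between 410 and 501 in AM-Allo, and Mef2c is highest in the 2 AM-Allo libraries with first number 2.

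The other class IIa deacetylases did not pass the test in neurons. Hdac4, which shuttles between nucleus and cytoplasm with neuronal activity, had 829.3, 802, 775 and 800 normalized counts in AM-Veh libraries 1-1 to 2-2 and 816, 783, 898 and 901 in AM-Allo. The 2 AM-Allo libraries with first number 2 were higher than every AM-Veh library and the other 2 were not. The log2 difference was 0.082 (95% interval -0.039 to 0.20; limma, Benjamini-Hochberg adjusted p = 0.954; exact permutation p = 0.257). Without AM-Allo 1-2 it was 0.12 and passed an unadjusted threshold of 0.05 in limma.

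Hdac5, a class IIa deacetylase that leaves the nucleus with neuronal activity, had 2451, 2357, 2330 and 2240 in AM-Veh and 2245, 2184, 2303 and 2330 in AM-Allo. The groups overlapped, and its log2 difference was -0.049 (95% interval -0.13 to 0.033; limma, Benjamini-Hochberg adjusted p = 0.973). Hdac7, best known from the vasculature and thymus, had 545, 532, 588 and 646 in AM-Veh and 563, 539, 562 and 569 in AM-Allo. Its groups overlapped as well, with the AM-Veh libraries more spread out than the AM-Allo libraries, and the log2 difference was -0.047 (95% interval -0.19 to 0.096; limma, Benjamini-Hochberg adjusted p = 0.996).

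Among the MEF2 genes, Mef2c rose in neurons before adjustment over all genes and not after it. Mef2c acts in the differentiation of excitatory neurons and the pruning of their synapses. Its normalized counts were 3617, 3606, 4285 and 3831 in AM-Veh and 4109, 4028, 5077 and 5048 in AM-Allo. AM-Veh 2-1 was above AM-Allo 1-1 and 1-2, so the groups overlapped, but within each first number both AM-Allo libraries were above both AM-Veh libraries. The mean was 3835 ± 318 in AM-Veh and 4565 ± 575 in AM-Allo (SD, n = 4), 19.1% higher.

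The log2 difference of Mef2c was 0.25 (SE 0.086; limma, Benjamini-Hochberg adjusted p = 0.723), past an unadjusted threshold of 0.05. The two-sided exact permutation test gave p = 0.0857, where 4 libraries against 4 allow 0.0286 at the smallest. With the first number as a block the adjusted p was 0.00729, and with the whole number as a block it was 0.0121 (limma, Benjamini-Hochberg). Without AM-Allo 2-1 the unblocked log2 difference was 0.19 and missed the unadjusted threshold. The study itself lists Mef2c, like Hdac9, among Ca2+ signaling genes changed in these libraries, so its rise is not independent evidence. The summed neuronal markers reached higher values in AM-Allo, with overlap, as given above, but single markers moved in opposite directions. With the first number as a block, 3 of the 9 neuronal markers tested passed after adjustment, beside 0.679% of all genes. Tubb3 rose (log2 difference 0.21; limma, Benjamini-Hochberg adjusted p = 0.0440). Gad1 and Gad2 fell (-0.41 and -0.45; limma, Benjamini-Hochberg adjusted p = 0.0392 and adjusted p = 0.0178). The part of these markers in the Hdac9 and Mef2c differences was not tested.

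Mef2a, expressed widely in the brain, had 1147, 1110, 1065 and 1031 normalized counts in AM-Veh and 1096, 1031, 1130 and 1221 in AM-Allo. The groups overlapped, with a log2 difference of 0.040 (95% interval -0.085 to 0.16; limma, Benjamini-Hochberg adjusted p = 0.997). Mef2d, a target of activity-dependent signaling and a neuronal survival factor, had 915, 893, 869 and 870 in AM-Veh and 935, 899, 910 and 885 in AM-Allo. It also overlapped, at 0.033 (95% interval -0.054 to 0.12; limma, Benjamini-Hochberg adjusted p = 0.996).

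Of the 6 genes other than Hdac9, 1 passed an unadjusted p of 0.05 in neurons (Mef2c), beside 5.69% of all genes tested, and 0 passed after Benjamini-Hochberg adjustment in limma, beside 0.0261%. With the first number as a block, 1 passed after adjustment, beside 0.679% of all genes, and with the whole number as a block also 1, beside 0.607%. The median log2 difference of the 7 genes was 0.033, and it was -0.0015 over all genes tested.

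The neuron libraries also differed by the first number in their names, and of the 7 genes Mef2c alone did so after adjustment. Over all neuron genes, 29.3% differed between first numbers 2 and 1 at an unadjusted p under 0.05 with treatment in the fit, and 17.2% after adjustment. Mef2c had 3840 ± 266 normalized counts in the 4 libraries with first number 1 and 4560 ± 609 in those with first number 2 (SD). The log2 difference was 0.24 (95% interval 0.16 to 0.32; limma, Benjamini-Hochberg adjusted p = 0.000333). Hdac7 was at 545 ± 13.2 and 591 ± 38.3, a log2 difference of 0.12 (limma, Benjamini-Hochberg adjusted p = 0.160). Thus 2 of the 7 genes were higher with first number 2 before adjustment, beside 15.3% of all genes in that direction, and 1 after it. The unadjusted call of Hdac7 was lost in a fit without a variance trend and without AM-Veh 1-1, 1-2, 2-1 or 2-2 or AM-Allo 1-2 or 2-2, and its log2 difference was then 0.074 to 0.13. The labels do not say what the first number stands for. The summed astrocyte markers were 198968 to 210910 in libraries with first number 1 and 236144 to 258956 in those with first number 2, without overlap, while the oligodendrocyte lineage markers were 42602 to 45659 and 38615 to 39339. Their part in the Mef2c difference was not tested.

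**Figure D2:**
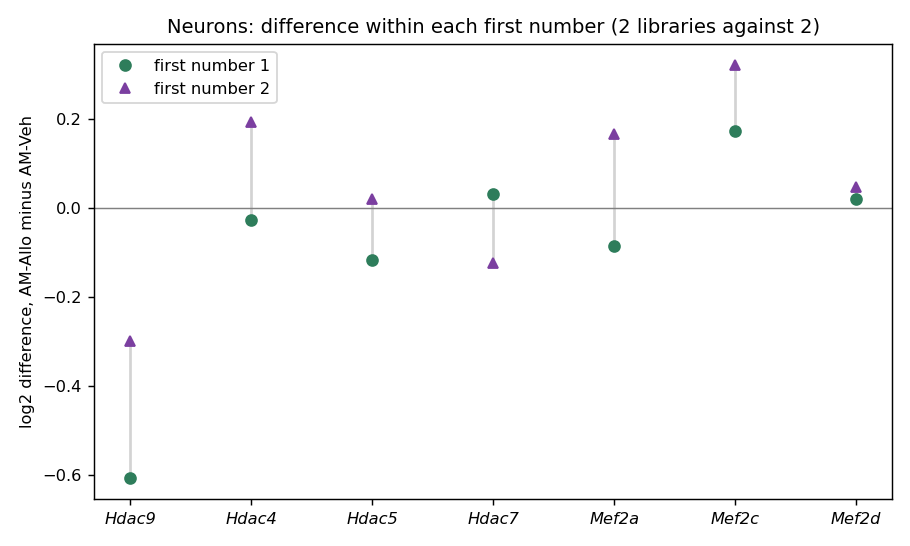
Log2 difference between AM-Allo and AM-Veh neurons (y axis) for each gene within first number 1 (circles) and within first number 2 (triangles), 2 libraries against 2 each, with a line joining them. The triangle lies above the circle for every gene but Hdac7, and Hdac9 is below 0 in both, at -0.61 and -0.30.

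The Allo difference itself was set side by side within each first number. The mean of Hdac9 in AM-Allo differed from that in AM-Veh by -34.5% within first number 1 (632 to 414 normalized counts) and by -18.8% within first number 2 (585 to 475). For Mef2a the difference was -5.71% within first number 1 (1128 to 1064) and 12.2% within first number 2 (1048 to 1176). For Hdac4 it was -1.91% (816 to 800) and 14.2% (788 to 900).

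Hdac9 was lower with Allo in both sets, which its groups without overlap had already fixed. The differences of Mef2a and Hdac4 lay on either side of 0. For Mef2c they were 12.7% (3611 to 4068) and 24.7% (4058 to 5062), above 0 in both sets. For Hdac5 they were -7.89% (2404 to 2214) and 1.37% (2285 to 2316). Hdac7 ran the other way, at 2.24% (539 to 551) and -8.41% (617 to 565), and Mef2d differed least between the sets, at 1.40% and 3.21%.

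For Hdac9, chosen on the same libraries, no interaction was tested. The interaction passed an unadjusted p of 0.05 for 4 of the other 6 genes, beside 9.53% of all neuron genes (limma). In all 4 the difference within first number 2 lay above that within first number 1, a direction called for 5.44% of all genes. The interaction on the log2 scale was 0.25 for Mef2a (SE 0.080), 0.22 for Hdac4 (SE 0.080), 0.15 for Mef2c (SE 0.063) and 0.14 for Hdac5 (SE 0.058). After Benjamini-Hochberg adjustment in limma 0 of the 6 passed, beside 0.0784% of all genes. The adjusted p was 0.319 for Mef2a, 0.384 for Hdac4 and 0.455 for both Mef2c and Hdac5. The genes share libraries, so these are not separate observations.

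In astrocytes Hdac9 did not pass the test, and the gene that passed before adjustment was Hdac7. Hdac9 had 202, 195 and 176 normalized counts in AM-Veh libraries 1, 2 and 3 and 203, 185 and 194 in AM-Allo. The groups overlapped, and the log2 difference was 0.023 (95% interval -0.21 to 0.25; limma, Benjamini-Hochberg adjusted p = 0.985). The difference between cell types was not tested, because the tables were normalized separately and the time of treatment differed.

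**Figure D3:**
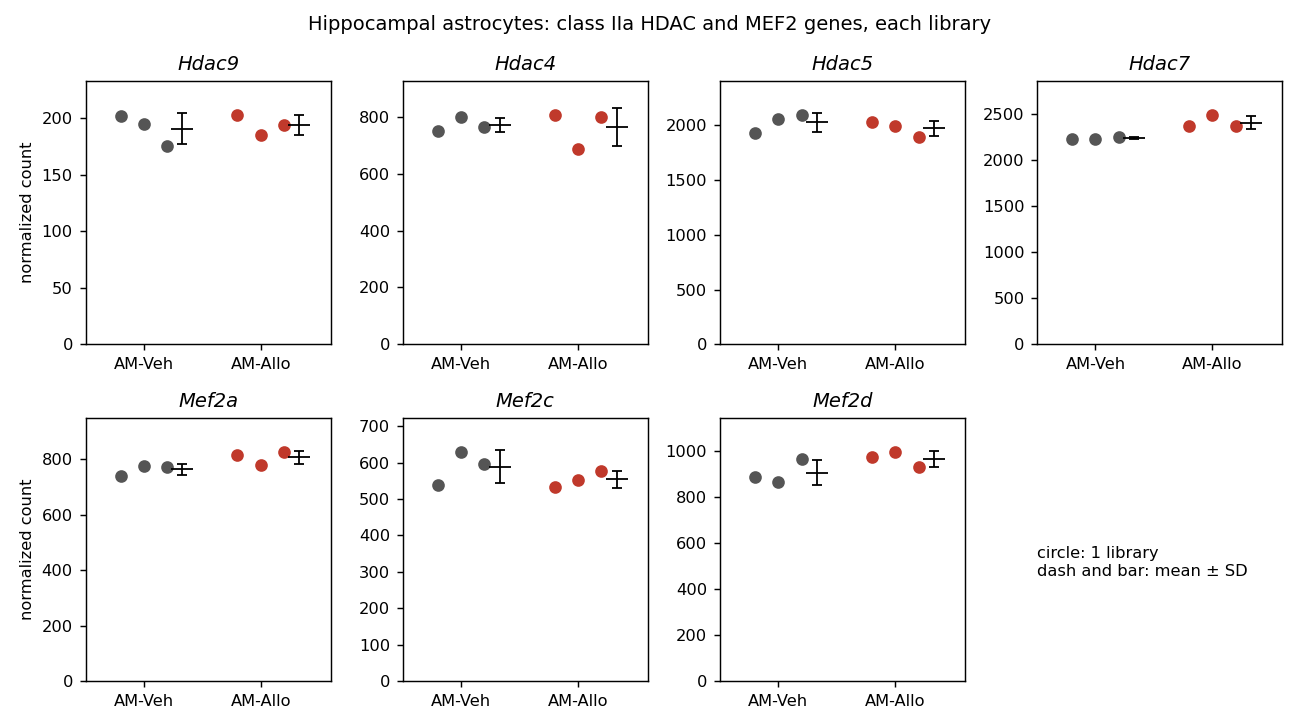
Normalized counts of the 7 genes in each astrocyte library (y axis, from 0, on a scale of its own for each gene), with AM-Veh in grey, AM-Allo in red, and the dash and bar for the mean ± SD of 3 libraries. Hdac7 and Mef2a are higher in every AM-Allo library than in any AM-Veh library, and Hdac9 overlaps between the groups.

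Hdac7 had 2229, 2229 and 2249 normalized counts in AM-Veh astrocytes and 2367, 2486 and 2365 in AM-Allo. All AM-Allo libraries were above all AM-Veh libraries. The mean was 2235 ± 11.8 in AM-Veh and 2406 ± 69.0 in AM-Allo (SD, n = 3), 7.63% higher. The log2 difference was 0.11 (95% interval 0.023 to 0.19; limma, Benjamini-Hochberg adjusted p = 0.611), past an unadjusted threshold of 0.05, and the two-sided exact permutation test gave p = 0.1, the smallest that 3 libraries against 3 allow. Without AM-Allo 2 the log2 difference was 0.082 and missed that threshold. The astrocyte markers Slc1a2 and S100b, 2 of the 9 tested, fell in the same comparison, as given above, and their part in the Hdac7 difference was not tested.

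Mef2a had 741, 778 and 773 normalized counts in AM-Veh astrocytes and 814, 780 and 826 in AM-Allo, also without overlap. Its log2 difference was 0.079 (95% interval -0.038 to 0.19; limma, Benjamini-Hochberg adjusted p = 0.817), and the exact permutation test again gave p = 0.1. The nearest libraries, AM-Veh 2 and AM-Allo 2, were almost level.

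Mef2c, which rose in neurons, had 540, 629 and 597 in AM-Veh astrocytes and 533, 552 and 578 in AM-Allo. The groups overlapped, with a log2 difference of -0.085 (95% interval -0.24 to 0.068; limma, Benjamini-Hochberg adjusted p = 0.849). Mef2d had 887, 867 and 966 in AM-Veh and 973, 996 and 929 in AM-Allo.

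The Mef2d groups overlapped through AM-Veh 3, at a log2 difference of 0.092 (limma, Benjamini-Hochberg adjusted p = 0.793), and without that library it was 0.14 and passed the unadjusted threshold. Hdac4 had 752, 802 and 766 in AM-Veh and 807, 690 and 801 in AM-Allo, with AM-Allo 2 the lowest of all. Its log2 difference was -0.017 (95% interval -0.16 to 0.13; limma, Benjamini-Hochberg adjusted p = 0.981). Hdac5 had 1930, 2061 and 2092 in AM-Veh and 2030, 1998 and 1896 in AM-Allo, again overlapping, at -0.038 (95% interval -0.14 to 0.060; limma, Benjamini-Hochberg adjusted p = 0.910).

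In astrocytes 1 of the 7 genes passed an unadjusted p of 0.05, beside 7.01% of all genes tested and 3.72% in the same direction, and 0 passed after Benjamini-Hochberg adjustment in limma, beside 0.0065%. The groups did not overlap for 2 of the 7, both higher in AM-Allo, beside 12.5% of all genes in either direction and 6.42% in that one.

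**Figure D4:**
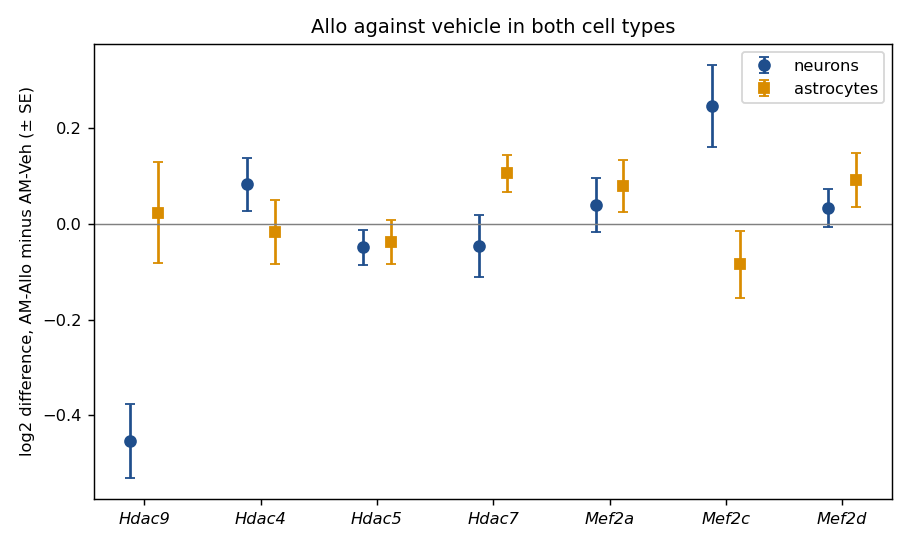
Log2 difference between AM-Allo and AM-Veh (y axis, ± SE) for each gene in neurons (circles, 8 libraries) and astrocytes (squares, 6 libraries). Hdac9 stands at -0.45 in neurons and 0.023 in astrocytes, and Mef2c at 0.25 and -0.085.

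The level of each gene in vehicle-treated cells was set across the cell types as normalized counts per 1000000 of its library, with no test because the tables were normalized separately. Mef2c was at 173 ± 13.1 in AM-Veh neurons and 24.7 ± 1.80 in AM-Veh astrocytes on this scale. Hdac9 was at 27.5 ± 2.20 in neurons and 8.0 ± 0.572 in astrocytes. Hdac7 had the opposite order, at 26.1 ± 2.12 in neurons and 93.6 ± 0.636 in astrocytes (SD, n = 4 and n = 3).

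The other 4 genes lay closer between cell types. In AM-Veh neurons and astrocytes Hdac5 was at 106 ± 4.69 and 84.9 ± 3.37, and Mef2a at 49.1 ± 2.70 and 32.0 ± 0.711. Hdac4 was at 36.2 ± 1.25 and 32.4 ± 0.950, and Mef2d at 40.0 ± 1.32 and 38.0 ± 2.24 (SD). The libraries of Mef2d overlapped, at 38.9 to 41.6 in neurons and 36.1 to 40.5 in astrocytes. Levels of different genes are not compared here, since the values are not per transcript length.

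Mef2b, the remaining MEF2 gene, was near the limit of the data, with a mean of 21.9 normalized counts in AM-Veh neurons and 20.0 in AM-Allo neurons and of 17.5 and 15.0 in astrocytes. It did not pass the test in either (limma, Benjamini-Hochberg adjusted p = 0.996 and adjusted p = 0.958), and no difference was detectable at this depth.

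The genes whose counts followed those of Hdac9 most closely over the 8 neuron libraries were Bop1, a ribosome assembly factor (r = 0.957), Sap30bp, a binding partner of a corepressor subunit (r = 0.946), Kcnf1, a potassium channel subunit (r = 0.945), Traf3ip1, a ciliary transport protein (r = 0.941), and LOC100912498 (r = 0.941), out of 11780 genes with a mean of at least 100. Among the 6 relatives, r with Hdac9 was -0.45 for Mef2c, -0.42 for Mef2d, -0.28 for Hdac4, -0.019 for Mef2a, 0.060 for Hdac7 and 0.70 for Hdac5. These values include the Allo difference on which Hdac9 was chosen. After the mean of each treatment was removed, the leading genes were Cbln1, an organizer of synapses (r = 0.983), Cbarp, a regulator of calcium channels (r = 0.967), an unnamed Ensembl gene (r = 0.963), Abca8 (r = 0.958) and Chrna7, a nicotinic receptor subunit that the study also lists (r = 0.952). The relatives were then at 0.54 for Mef2c, 0.049 for Mef2d, 0.56 for Hdac4, 0.53 for Mef2a, -0.48 for Hdac7 and 0.66 for Hdac5, so the sign turned for all but Hdac5. The points are the same 8 libraries throughout and share the difference between first numbers, so these values are descriptions.

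The enzymes and partners around the class IIa deacetylases were read next, from lists of known members. Of the 7 other deacetylases tested in neurons (Hdac1, Hdac2, Hdac3, Hdac6, Hdac8, Hdac10 and Hdac11), none passed an unadjusted threshold of 0.05 in either direction, a count of 0 beside 5.69% of all genes, and Hdac2, with the most counts, was at 3157 ± 96.5 and 3027 ± 102 (SD, n = 4). Of the 6 genes of the corepressor complex, which include Hdac3 again, 0 rose and 0 fell. The 6 genes of 14-3-3 proteins, which bind phosphorylated deacetylases, also had 0 in either direction, and Ywhae was at 29716 ± 541 and 29551 ± 410. The median log2 differences of these lists were -0.0011, 0.0092 and 0.017, beside -0.0015 over all genes.

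Of the 16 kinases that phosphorylate class IIa deacetylases or their relatives, 4 passed the unadjusted threshold in neurons. The 2 that rose stand beside 3.21% of all genes called higher, and the 2 that fell beside 2.48% called lower. Camk2a, the neuronal CaM kinase II subunit, was between 900 and 1134 normalized counts in AM-Veh and between 1135 and 1468 in AM-Allo, a log2 difference of 0.33 (limma, Benjamini-Hochberg adjusted p = 0.609). Its groups did not overlap, though the closest libraries were level. Camk2g, another subunit, was between 2075 and 2282 in AM-Veh and between 2270 and 2513 in AM-Allo, a log2 difference of 0.10 (limma, Benjamini-Hochberg adjusted p = 0.851). The unadjusted call of Camk2g was lost in a fit without a variance trend and without AM-Veh 1-2, 2-1 or 2-2 or AM-Allo 1-1 or 1-2, and its log2 difference was then at the lowest 0.069.

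Sik3, a salt-inducible kinase that phosphorylates class IIa deacetylases, fell from 2503 ± 23.2 to 2322 ± 109 (SD, n = 4). Its log2 difference was -0.11 (limma, Benjamini-Hochberg adjusted p = 0.712), and the groups did not overlap. Camk1d, a CaM kinase I isoform, fell from 523 ± 9.68 to 469 ± 28.3 (SD, n = 4), a log2 difference of -0.16 (limma, Benjamini-Hochberg adjusted p = 0.731). The other 12 kinases, including Camk2b, with the most counts at 5605 ± 328 and 5727 ± 209, did not pass. In all, 0 of the 16 passed after Benjamini-Hochberg adjustment in limma.

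The list of MEF2 regulators, which also holds Mef2b, had 9 genes tested in neurons, of which 1 rose at the unadjusted threshold, beside 3.21% of all genes called higher, and 0 fell, beside 2.48% called lower. Ppp3ca, the catalytic subunit of calcineurin, which dephosphorylates MEF2, was between 3199 and 3496 in AM-Veh and between 3525 and 3577 in AM-Allo. The log2 difference was 0.079 (limma, Benjamini-Hochberg adjusted p = 0.806). The unadjusted call was lost in a fit without a variance trend and without AM-Veh 2-1 or 2-2 or any 1 AM-Allo library, with a log2 difference of 0.055 without AM-Veh 2-2. Ppp3r1, the calcineurin regulatory subunit, with the most counts of the list, was at 4839 ± 154 and 4782 ± 127 (SD, n = 4). Camk1d, Camk2a, Camk2g and Ppp3ca are listed by the study as changed in these libraries, so they are not independent evidence.

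**Figure D5:**
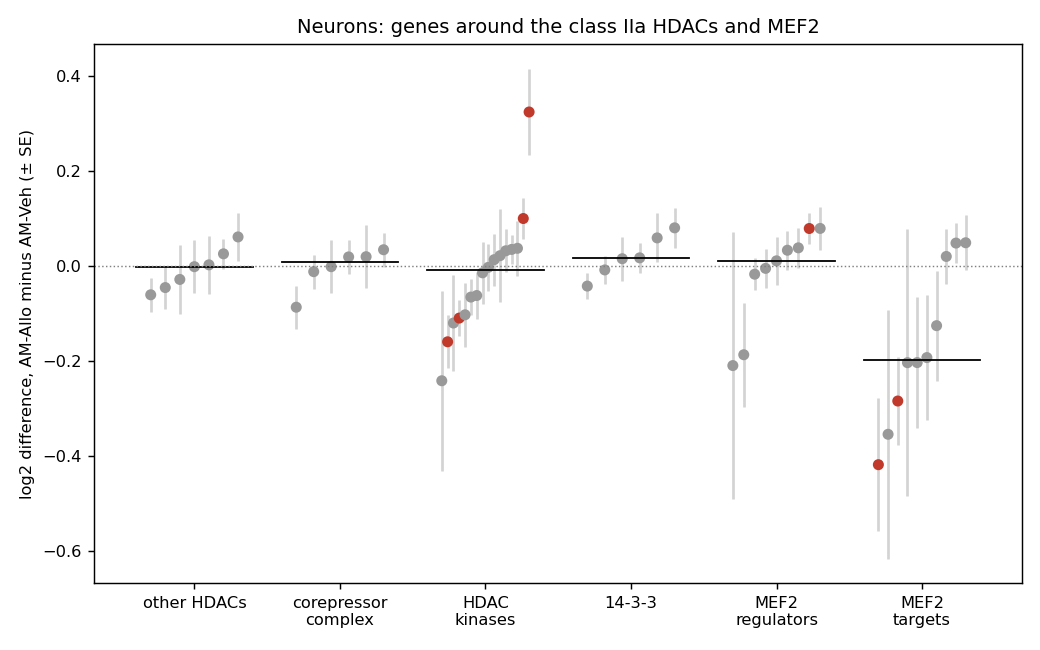
Log2 difference between AM-Allo and AM-Veh neurons (y axis, ± SE) for each gene tested of 6 lists around the class IIa deacetylases and MEF2, with genes at an unadjusted p under 0.05 in red and the median of each list as a black line. The MEF2 target list has its median at -0.20 and the other medians lie near 0.

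Of 10 genes known as MEF2 targets in neurons, 2 fell at the unadjusted threshold, beside 2.48% of all genes called lower, and 0 rose. Differences were below 0 for 7 of the 10, beside 50.8% of all genes tested. The median log2 difference was -0.20, beside -0.0015 over all genes. Bdnf, which encodes a growth factor released at active synapses, had 325, 316, 385 and 300 normalized counts in AM-Veh and 272, 241, 280 and 293 in AM-Allo. Its groups did not overlap, and the log2 difference was -0.28 (SE 0.092; limma, Benjamini-Hochberg adjusted p = 0.671).

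Egr1, an immediate-early transcription factor, had 447, 516, 725 and 708 in AM-Veh and 458, 463, 415 and 419 in AM-Allo. The gap lay within first number 2, and within first number 1 the groups overlapped. Over all 8 libraries the log2 difference was -0.42 (SE 0.14; limma, Benjamini-Hochberg adjusted p = 0.712). Bdnf is also listed by the study as changed in these libraries.

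The remaining targets gave no call without the block. Nr4a1, an activity-induced nuclear receptor, was at 457 ± 66.4 with vehicle and 401 ± 66.7 with Allo. Pcdh10, a protocadherin that takes part in MEF2-dependent synapse elimination, had the most counts, and was at 36110 ± 10914 and 28665 ± 10030 (SD, n = 4). With the first number as a block, Nr4a1, Hdac2, Tbl1x, Mark3 and Mapk7 also fell and Ywhag rose before adjustment, beside 11% of all genes. Their log2 differences were -0.19, -0.060, -0.087, -0.062, -0.19 and 0.081, and 0 genes of these 6 lists passed after Benjamini-Hochberg adjustment in limma. With the whole number as a block Hdac2 did not pass and Pcdh10 fell before adjustment.

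Without a block, 7 of the 53 neuron genes tested of these lists, or 13.2%, passed an unadjusted p of 0.05, beside 5.69% of all genes. After adjustment 0 passed, and the lists were chosen with earlier results of these data known. In astrocytes 2 of the 51 genes tested of the same lists, or 3.92%, passed an unadjusted p of 0.05, beside 7.01% of all genes, and 0 passed after adjustment (limma, Benjamini-Hochberg), so the share called was not above that over all genes. Ywhag, which encodes a 14-3-3 protein, was at 5083, 5426 and 5362 in AM-Veh and 5633, 5619 and 5931 in AM-Allo. The groups did not overlap, and the log2 difference was 0.11 (limma, Benjamini-Hochberg adjusted p = 0.529). Without AM-Veh 1 it was 0.086 and missed the unadjusted threshold, as it did in a fit without a variance trend.

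Pcdh10 was at 18329, 19870 and 17513 in AM-Veh and 17448, 26846 and 88634 in AM-Allo, so the difference lay mainly in AM-Allo 3. The log2 difference was 0.90 (limma, Benjamini-Hochberg adjusted p = 0.693), and 0.22 without AM-Allo 3. The unadjusted call was lost without that library, without any 1 AM-Veh library and in a fit without a variance trend. Camk1g and Camk4, which had means of at most 5.35 normalized counts, were not tested there, and 0 of the other 14 kinases, 0 of 7 other deacetylases, 0 of 6 corepressor genes and 0 of 9 genes of the MEF2 regulator list passed before adjustment (limma). The median log2 difference of the MEF2 targets in astrocytes was 0.032, against -0.20 in neurons, a contrast that was not tested.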

How the data were processed

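RNA-seq was analysed in 8 neuron and 6 astrocyte libraries. From poly(A)-selected stranded libraries the authors quantified transcripts with Salmon 0.14 against rat Ensembl release 95, summed them to genes with tximport and divided the counts by DESeq2 1.18.1 normalization factors. The deposited signal is this normalized count. The deposited VST values are on a scale like log2 that is compressed at lower counts. In neuron AM-Veh 1-1, Hdac9 at 615 normalized counts had a VST value of 10.1 and Mef2c at 3617 had 12.0. In neurons the authors' VST values have equal means for both first numbers. Low values were whole multiples of 1 read, within 0.15 reads, in 72.5% to 95.0% of cases, too few to restore the counts, so no count model was used. Estimated depth was 19600000 to 25200000 reads in neurons and 22200000 to 28600000 reads in astrocytes for each library, and 1 read was worth 0.840 to 1.14 normalized counts.

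Log2(normalized count + 1) was tested with limma 3.58.1 (lmFit, eBayes with trend; R 4.3.3) for genes with a mean of at least 10, with Benjamini-Hochberg adjustment over all genes tested. Differences are on that log2 scale. The 7 genes, Hdac9 in neurons apart, also had an exact permutation test (two-sided) of mean log2 values. After removal of group means, AM-Veh and AM-Allo neuron libraries with the same number correlated over genes at 0.296, 0.229, 0.265 and 0.273. Those that shared only the first number correlated at 0.185 to 0.236, and those with different first numbers at -0.15 to -0.32. Neuron libraries thus grouped mainly by first number, and pairing by the whole number was less clear. In astrocytes the same numbers gave -0.0070 to 0.024 and were not taken as pairs. The 7 genes and all lists were chosen with earlier results of these data known. Of each list the text names genes at an unadjusted p under 0.05 (at most 4 by smallest p) and the gene with the most counts (for the corepressor list it is not reported here), and like Hdac9 the 5 genes with the highest correlation. Genes named with the block or as not tested were added after their values were seen. Ep300 and Snap25 were not analysed here.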

Additional observations from a re-analysis of the deposited data

Results flagged for a closer look

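The Allo difference in neurons differed between the first numbers of the library names for 4 of the 6 genes other than Hdac9 before adjustment, beside 9.53% of all genes, and for 0 of the 6 after it, beside 0.0784%. The difference within first number 2 minus that within first number 1 was 0.25 on the log2 scale for Mef2a, 0.22 for Hdac4, 0.15 for Mef2c and 0.14 for Hdac5 (limma interaction term, past an unadjusted threshold of 0.05). The lowest Benjamini-Hochberg adjusted p was 0.319, and 6 such tests were made. Each rests on 2 libraries against 2 in either set. No library stood apart from the others of its group by Dixon's criterion in the 14 groups of 4 neuron libraries examined. Each group of 4 held 2 libraries of each first number, and with so few values this criterion can miss a library that stands apart.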

How the results depend on the processing

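Hdac9 in neurons was at -0.51 to -0.42 with 1 library left out and -0.45 to -0.25 in the other alternatives. The gene was chosen on these libraries and its groups did not overlap. Leaving out 1 library therefore could not turn the sign, and these ranges describe size alone. The -0.25 came with VST values, whose scale is compressed at these counts, so its size is not comparable with the others. The numbers of genes passing an adjusted p of 0.05 in neurons were 4 in all, 0 without a variance trend, 0 to 4 with 1 library left out, 158 with VST values, 104 with a replicate block by first number and 93 with one by whole number. Before adjustment they were 872, 2204 with VST values, and 1684 and 1634 with the blocks. Of the 6 relatives, 1 passed before adjustment (0 to 2 with 1 library left out) and 0 after it (1 with VST values and 1 with either block). The gene that passed with a block was Mef2c (adjusted p of 0.00729 and 0.0121, limma), and the blocks changed no other call among the 6. The neuron VST means of both first numbers are equal by construction, and the fit on VST values held treatment alone. That fit had no term for the removed difference between first numbers, so its counts of passing genes may be too high. Because these means are equal, VST values were not run for the comparison of first numbers.

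In astrocytes 1 gene in all passed after adjustment, 0 with a minimum mean of 50 or without a trend, 1 to 72 with 1 library left out and 17 with a replicate block by number. Of the 7 genes 1 passed before adjustment, 0 to 2 with 1 library left out. Between first numbers 2 genes of the 7 passed, 1 without a trend and 1 to 2 with 1 library left out, and 2636 genes in all after adjustment, or 1722 without a trend.

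With 1 library left out the sign of some small differences turned. In neurons Hdac7 ran from -0.085 to 0.0084 and Mef2a from -0.0026 to 0.078, and in astrocytes Hdac4 from -0.057 to 0.056 and Hdac9 from -0.035 to 0.064. Between first numbers Hdac5 ran from -0.026 to 0.021, Hdac9 from -0.022 to 0.11 and Mef2a from -0.029 to 0.053. The cause of these changes was not tested.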
